A study of Homo sapiens with 4 samples.

Results

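The region of the PPARG gene was examined in PPARG ChIP-seq peak lists from NCI-H1993 and NCI-H2347, established human lung adenocarcinoma cell lines. The window ran from position 12100000 to 12700000 of chromosome 3 (hg19) around the gene at 12329 to 12476 kb. A peak belonged to it when its midpoint lay inside, whatever its width or score. It held 4 of the 3644 peaks in both lists together, 3 of 1419 in NCI-H1993 and 1 of 2225 in NCI-H2347. Both lines carried a bacterial artificial chromosome (BAC) that encodes PPARG with a LAP tag and were grown in RPMI-1640 with serum. LAP tags are made for imaging a protein and purifying it, and the EGFP in this one was the target of the goat antibody used for precipitation. Both ChIP samples carry the BAC, and no untagged line is among the samples used here. The labels give no treatment, and PIO in the names of the lists is not explained. There was 1 ChIP library and 1 input library per line, 4 samples in all, and the inputs were not analysed here. With 1 library per line there is no replicate, so all values below are descriptions of these lists and carry no test.

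PPARG is a nuclear receptor that is activated by fatty acids and their derivatives and is best known as a driver of fat cell formation and lipid storage. It binds DNA together with a retinoid X receptor, mainly at direct repeats of the half-site AGGTCA separated by a single base. Alternative promoters of the gene give transcripts for a shorter and a longer protein. BAC transgenesis adds a large piece of genomic DNA to a cell, so that a tagged protein is made under its own regulatory sequences. Reads from the added copies and from the cell's own PPARG gene align to the same positions and cannot be told apart. The name and ends of the BAC are not given in the sources used here, so it is not known which peaks lie within its insert.

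The upstream sequences of PPARG are shown because they are the gene's own regulatory sequence and neither line had a peak over the start of the gene. RefSeq lists 6 PPARG start sites on GRCh38.p14, all on the plus strand. AGGTCA or its reverse complement TGACCT was found in the 250 bases before the start at 3 of them. The first site below has 2 half-sites and the second has 1, and the third, largely the same sequence as the second, has 1. Capitals mark the half-site.
PPARG start site 1, chr3:12287118-12287367, plus strand: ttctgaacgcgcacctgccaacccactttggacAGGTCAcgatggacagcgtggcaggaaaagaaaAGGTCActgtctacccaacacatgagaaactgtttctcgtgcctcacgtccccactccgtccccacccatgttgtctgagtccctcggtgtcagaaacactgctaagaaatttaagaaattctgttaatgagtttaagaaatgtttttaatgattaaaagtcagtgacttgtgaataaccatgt
PPARG start site 2, chr3:12288810-12289059, plus strand: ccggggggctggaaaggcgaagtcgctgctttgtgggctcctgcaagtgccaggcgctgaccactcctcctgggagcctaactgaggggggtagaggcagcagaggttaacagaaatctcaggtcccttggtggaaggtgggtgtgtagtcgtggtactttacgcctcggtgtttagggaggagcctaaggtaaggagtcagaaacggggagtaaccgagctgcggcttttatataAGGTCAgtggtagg
The half-site on either strand occurs in 12.1% of the 35116 such sequences of all genes in the table, and 2 or more occur in 1.02%. A direct repeat, 2 copies of AGGTCA with any single base between them, was searched on both strands and was in 0 of the 6 PPARG sequences and in 0.0171% of all. These are matches of letters in windows on GRCh38.p14 and were not placed on the hg19 positions of the peaks.

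Neither line had a peak in the PPARG gene body. All 4 peaks lay past the 3′ end of the gene, between 6.64 and 37.8 kb from it. All were broad, with scores under the median of their list. The gene body of 147 kb held 0 peaks in NCI-H1993 and 0 in NCI-H2347, by midpoint and by any overlap. The upstream flank of 229 kb also held 0 in each list, and 0 peaks lay within 10 kb of the gene's start. The median distance between neighbouring peaks was 0.793 Mb in NCI-H1993 and 0.406 Mb in NCI-H2347. Both exceed the lengths of the gene body and upstream flank, so empty stretches of such lengths are common in these lists and not particular to PPARG. The downstream flank of 224 kb held all 3 NCI-H1993 peaks and the NCI-H2347 peak. Gene ends are given to 1 kb, so distances carry that rounding. A list shows only peaks above the authors' threshold, and binding in the gene body below it cannot be judged.

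In NCI-H1993 the nearest peak to the gene spanned 12483898 to 12488432, a width of 4535 bp, with a score of 62.9. It began 7.90 kb past the end of PPARG. The second spanned 12491164 to 12498868, a width of 7705 bp, with a score of 53.2, and the third 12511303 to 12513773, a width of 2471 bp, with a score of 51.9. Their starts were 15.2 and 35.3 kb past the gene's end. Gaps of 2.73 kb and 12.4 kb separated the 3 peaks, which together covered 49.2% of a span of 29.9 kb. In NCI-H2347 the single peak spanned 12482638 to 12488264, a width of 5627 bp, with a score of 70.4, and began 6.64 kb past the end. Its midpoint was 9.45 kb from the end and that of the nearest NCI-H1993 peak 10.2 kb, so these neighbours fall on either side of a limit of 10 kb. The map of the window shows the peaks of both lines in the same place beside the gene, with the other 2 of NCI-H1993 further out.

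**Figure D1:**
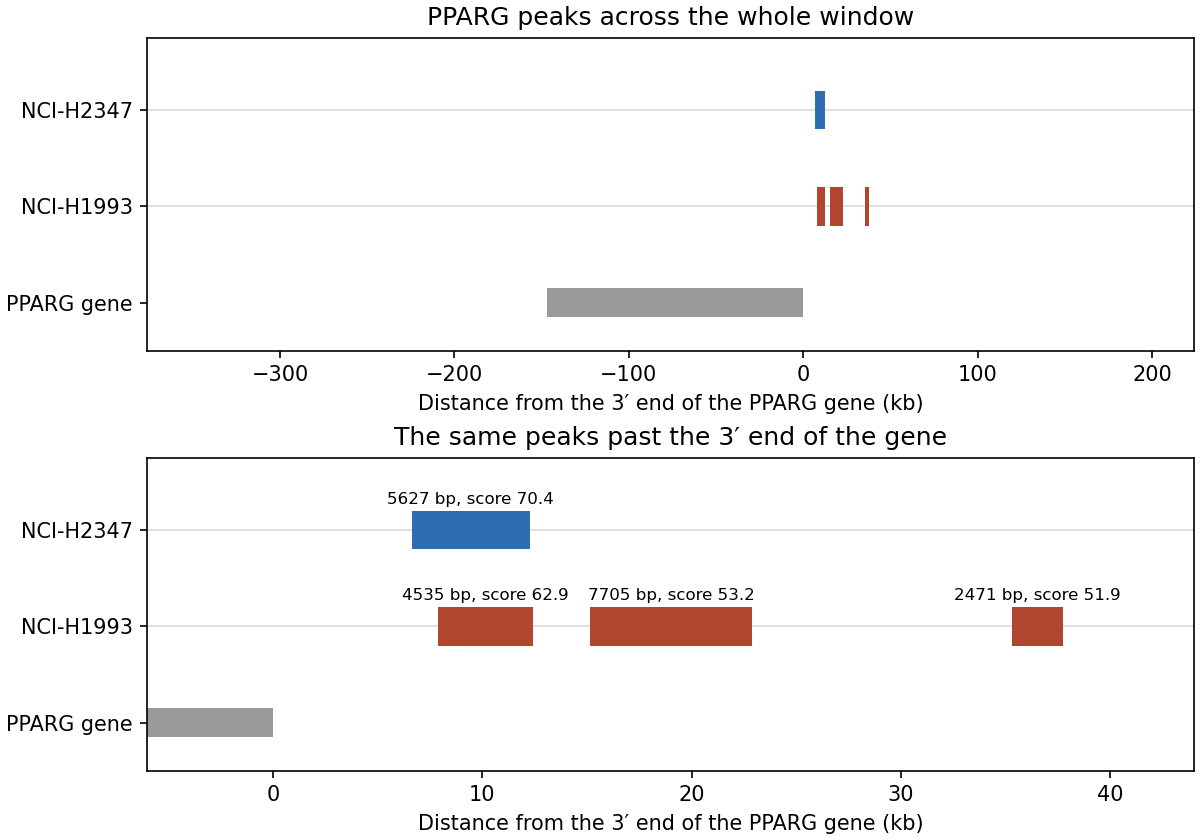
Peaks of both lines in the window around PPARG, drawn to scale as boxes by distance from the 3′ end of the gene (kb; negative values run into and past the gene, whose body is the grey bar). The upper panel covers the 600 kb window and the lower the region past the gene's end, with each peak's width and score: the boxes start at 6.64 kb or further out, and none lies over the gene.

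The place nearest the gene was common to both lines. The nearest peaks of the 2 lists overlapped by 4367 bp, which was 96.3% of the NCI-H1993 peak and 77.6% of the NCI-H2347 peak. This was the longest overlap of all 486 overlapping pairs between the lists, whose median was 683 bp. An overlap cannot be longer than the narrower peak, so its rank follows in part from the great width of both peaks. The ends of the 2 peaks on the side away from PPARG were 168 bp apart, and the ends on the side of the gene 1260 bp apart. Their midpoints were 714 bp apart, against a median of 76.3 bp over all pairs, and 5 pairs had midpoints further apart. Thus 1 of 3 NCI-H1993 peaks overlapped the other list, where 34.2% of that whole list did, and 1 of 1 NCI-H2347 peak, where 21.7% did. Counts of this size cannot be told apart from those shares. The peaks of 7705 and 2471 bp had no counterpart in NCI-H2347, whose list holds no signal below its threshold.

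The members were far wider than most peaks. The median width was 731 bp in NCI-H1993 and 832 bp in NCI-H2347. The 3 NCI-H1993 peaks were 6.20, 10.5 and 3.38 times the median of their list, in order from the gene, and the NCI-H2347 peak was 6.76 times the median of its own. By width they ranked 11, 2 and 26 of 1419 and, in NCI-H2347, 2 of 2225. A width above 2500 bp was reached by 2 of the 3 NCI-H1993 peaks, where 1.76% of that list were as wide (25 peaks, 95% Wilson interval 1.20% to 2.59%). The NCI-H2347 peak also passed it, where 0.404% of its list did (9 peaks, 0.213% to 0.767%). The third NCI-H1993 peak, at 2471 bp, was just under that width. The intervals treat peaks as independent draws and cover counting error only. Both shares include the window's own wide peaks, 2 in NCI-H1993 and 1 in NCI-H2347. On chromosome 3, the widest other peak was 5008 bp in NCI-H1993, followed by 1329 bp, and 2148 bp in NCI-H2347.

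Scores did not stand out in the same way. The authors' score is used here only to rank, filter and match peaks within a list. The peaks of 62.9, 53.2 and 51.9 in NCI-H1993 were all under the list's median of 69.8, with 38.1%, 14.2% and 8.60% of the list below them. In NCI-H2347, 70.4 was under the median of 77.1, with 42.3% of the list below. No member reached a score of 100 (0 of 4), where 23.8% of the NCI-H1993 list and 33.0% of the NCI-H2347 list did. Among all peaks over 2500 bp, members included, the median score was 85.62 in NCI-H1993 (51.25 to 215.15). In NCI-H2347 it was 70.4 (54.12 to 1002.35), the score of the member itself. Width was then compared among peaks outside the window whose score lay within 5 of the member's. In NCI-H1993, 3 of 289 such peaks were wider than the peak nearest the gene, 0 of 391 were wider than the second and 4 of 351 wider than the third. The medians of those peaks were 697, 619 and 614 bp. In NCI-H2347, 0 of 295 were wider, with a median of 796 bp.

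**Figure D2:**
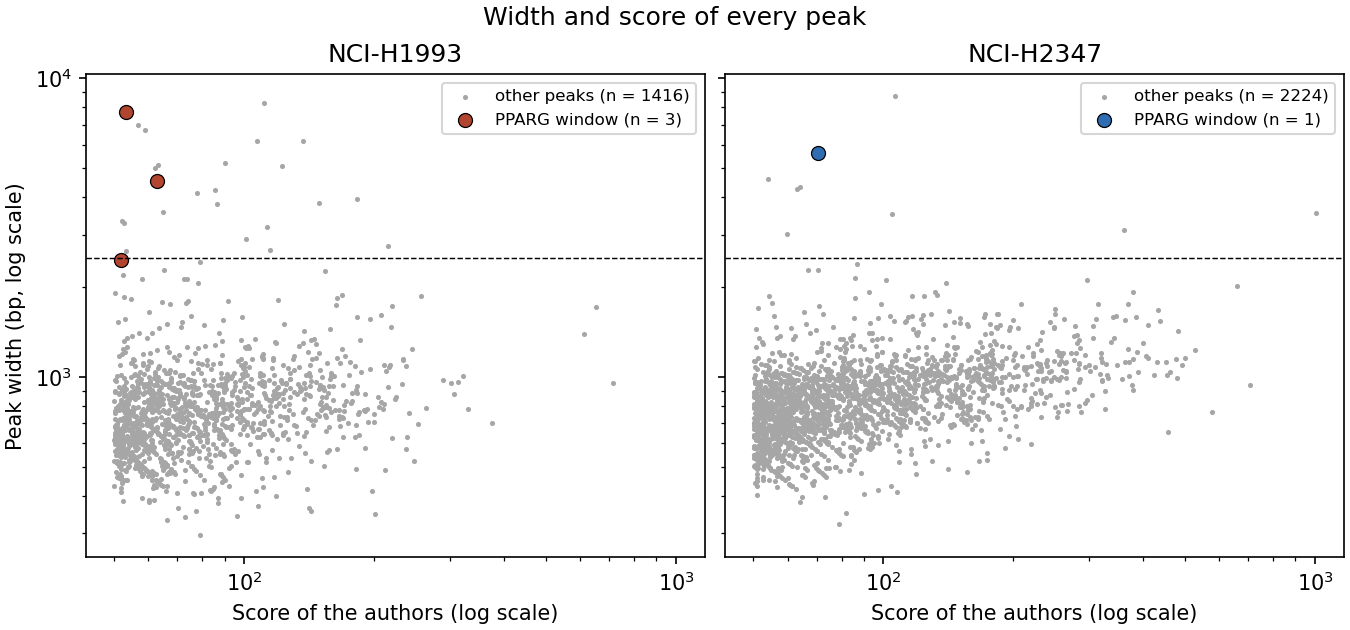
Width (bp, log scale) against the authors' score (log scale) for every peak of NCI-H1993 and NCI-H2347, with the peaks of the PPARG window as large points and a dashed line at 2500 bp. The 4 large points sit at the left, at scores of 51.9 to 70.4, and at widths of 2471 to 7705 bp, above nearly all peaks of like score.

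No other peak lay near the broad peaks in either line. In NCI-H1993 the nearest peak upstream was at 5027084 to 5027838, with a width of 755 bp and a score of 74.6, which left 7.46 Mb without a peak. The next one downstream was at 14377893 to 14378531, with a width of 639 bp and a score of 69.3, after 1.86 Mb. Of the 1388 distances between neighbouring peaks in that list, 93.9% were shorter than the upstream one and 68.6% shorter than the downstream one, and the median was 0.793 Mb. In NCI-H2347 the neighbours were at 11237844 to 11238625 and at 14155617 to 14156420, with widths of 782 and 804 bp, scores of 62.6 and 63.3, and distances of 1.24 and 1.67 Mb. Of that list's distances, 72.3% and 77.8% were shorter. The neighbouring peaks on each side in both lists thus had widths near the median of their list, unlike the peaks beside PPARG.

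Counted per 600 kb, the PPARG window ranked higher by bases in peaks than by number of peaks in both lines. In NCI-H1993 its 3 peaks placed it at rank 21 of 989 windows with a peak, with 69 others at the same number and 6 peaks in the fullest. Its 14711 bases in peaks ranked 2 of 989, where the other windows with 3 peaks had a median of 2294 bases and at most 12496. The window held 0.211% of the list's peaks and 1.23% of its bases in peaks. In NCI-H2347 the single peak was the least a listed window can hold. Its 5627 bases ranked 14 of 1326, and the other windows with 1 peak had a median of 797 bases and at most 4605. These sums follow from the widths above.

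**Figure D3:**
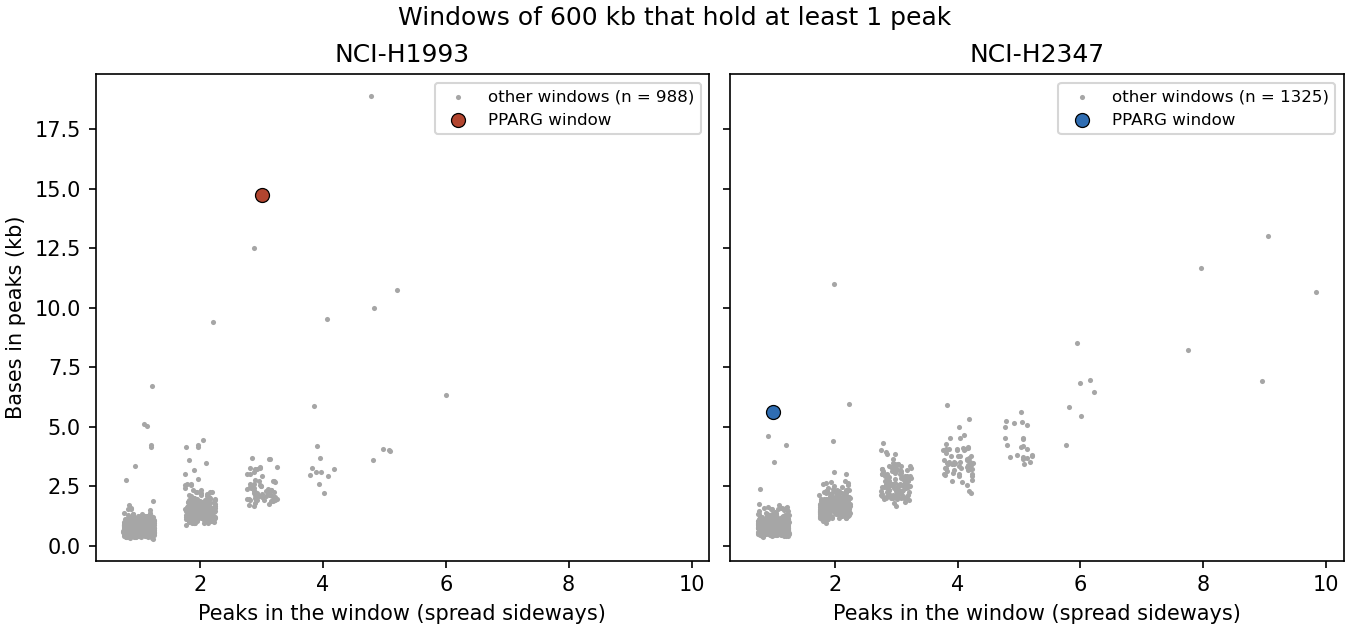
Bases in peaks (kb) against number of peaks for each 600 kb window with at least 1 peak, for NCI-H1993 and NCI-H2347; points are spread sideways for visibility, and the large point is the PPARG window. The PPARG window has more bases in peaks than any other window with the same number of peaks, 14711 bases with 3 peaks in NCI-H1993 and 5627 bases with 1 peak in NCI-H2347.

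Peaks over 2500 bp of both lists overlapped each other at 3 places in the genome. One of them was the place past PPARG. The second was on chromosome 2, where the NCI-H1993 peak spanned 92318295 to 92322251 and the NCI-H2347 peak spanned 92319594 to 92322617. The last was on chromosome 9, where the corresponding peaks spanned 66832813 to 66836379 and 66832803 to 66836311. Widths there were 3957 and 3024 bp on chromosome 2 and 3567 and 3509 bp on chromosome 9, in NCI-H1993 and then NCI-H2347. Among these 3 places, the place past PPARG had the longest overlap and the widest peak in each line, but not the highest scores. Scores in NCI-H1993 and then NCI-H2347 were 62.9 and 70.4 past PPARG, and 182.45 and 59.7 on chromosome 2. On chromosome 9 they were 64.84 and 104.9. The sequence and genes at these places were not examined. The 3 NCI-H1993 peaks past PPARG also formed a group. Joining peaks up to 20 kb apart gave 12 groups of 3 or more in that list. In the 11 groups elsewhere the narrowest peak was at most 1353 bp, against 2471 bp beside PPARG. The limits of 20 kb and 3 peaks were chosen after the values had been seen.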

How the data were processed

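PPARG ChIP-seq peak lists of NCI-H1993 and NCI-H2347 were used, 1 per line. Per the submitters' processing notes, the peaks come from MACS 1.4.2 on hg19. The aligner, read filters, threshold and use of the inputs are not given in the sources used here. Each score is the authors' deposited value for that peak, and the lowest is 50.03 for NCI-H1993 and 50.05 for NCI-H2347. Read depth is unknown, so neither scores nor peak numbers were compared between lines. Width is the end minus the start column, and printed starts are 1-based.

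Every peak with its midpoint in the window is described, with the nearest peak on each side. Overlap meant at least 1 bp. Windows of 600 kb were aligned to the PPARG window, without contigs. Intervals are 95% Wilson intervals. The window, classes and thresholds were chosen with earlier results of these data known. Promoter sequences come from RefSeq (GRCh38.p14), the gene's hg19 bounds from the window definition. Neighbouring genes are not reported here. The code was tested on simulated lists. Alternatives covered score, window, width limit, overlap rule and window ranking. Python 3.11.15, numpy 2.4.6, pandas 2.3.3, scipy 1.17.1 and matplotlib 3.10.9 were used.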

Additional observations from a re-analysis of the deposited data

How the results depend on the processing

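Of 45 values under alternative settings, 25 stayed within 1.5 times the reported value and 20 did not. With a score of at least 100, peaks, wide peaks, bases in peaks and overlapping peaks in the window were 0 in both lines, since no member reaches that score. Restricted to the gene body, the counts of peaks, wide peaks and bases were 0 in both. With midpoints within 250 bp in place of overlap, 0 peaks were shared, since the midpoints are 714 bp apart. Widening the window by 100 kb on each side, counting any overlap, and merging peaks up to 1 kb apart changed no count of peaks. The gaps between the NCI-H1993 members were 2.73 and 12.4 kb. The nearest outside peak in either list was 1.24 Mb away, so these settings could not have changed those counts. With a limit of 2000 bp, 3 NCI-H1993 peaks counted as wide, and the share of the whole list over that limit was not computed. With windows started every 300 kb, which adds windows, the rank by number of peaks was 47 in NCI-H1993 (21 without) and 1039 in NCI-H2347 (517 without). Ranked by bases in peaks, the windows without this overlap gave ranks of 2 and 14. No paired analysis was possible because each line has a single ChIP library.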
